A study of Mus musculus with 6 samples.

Results

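Enzymes that break down or hydroxylate tryptophan were examined in bronchial smooth muscle cells (BSMCs) from mice with allergic airway inflammation and from control mice. The 8 genes are Tdo2, Ido1, Ido2, Afmid, Kmo, Kynu, Haao and Tph1, and they were found by gene symbol among the 20239 named genes of the arrays, with 1 probe set for each. They were chosen by their place in the pathway with the log2 differences between OVA and PBS arrays already known, so for these 8 genes that comparison is given as a description with no test. Each value below is a log2 level, on which a difference of 1 unit is a factor of 2, and levels of different genes are not set against each other because each has probes of its own.

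All mice were adult, on the C57BL/6J strain, and carried both the SMA-GFP and the NG2-DsRed transgene, which express a green protein from a smooth muscle actin promoter and a red protein from the promoter of Cspg4. Mice of the OVA group received 50 µg of ovalbumin (OVA) by intraperitoneal injection on days 0 and 7, whereas control mice were sensitized with PBS, and both groups were challenged with nebulized OVA on 5 days from day 14 to day 18 and analyzed on day 19. The deposited labels give the OVA injections for every sample and name single animals and microdissected muscle, so the PBS sensitization, the sorting of green, DsRed-, CD45- and CD31- lung cells and the pooling of RNA from several mice per array are taken from the study's Methods. There were 3 PBS arrays and 3 OVA arrays, of Affymetrix whole-transcript type with 1 array per sample. OVA 2 stood apart from the other arrays. Its score on the first principal component, which held 61.2% of the variance, lay 78.3 units from the median score, against at most 12.7 for the other 5 arrays, and the Methods leave out 1 OVA array as such an outlier without naming it. Differences are therefore given for OVA 1 and OVA 3 against PBS 1 to PBS 3 first, and for all 6 arrays second. On OVA 2 the levels were compressed, with a lower quartile of 5.71 against 5.25 to 5.35 on the other arrays, so that genes of low level tended to lie higher there. Acta2, which encodes the actin that marks the sorted cells, had levels of 11.87 to 12.39 on PBS arrays and 12.09 to 12.52 on OVA arrays. Ptprc, which encodes the leukocyte protein CD45 that the sort selected against, had levels of 6.84 to 8.10 on PBS arrays and of 8.09 and 8.31 on OVA 1 and OVA 3, with OVA 2 at 6.18. Cspg4, whose promoter drives the DsRed selected against, had levels of 8.81 to 9.63 on PBS arrays and 8.90 to 9.54 on OVA arrays. Notch3, which the study describes as restricted to vascular smooth muscle in the lung, had levels of 9.41 to 10.33 on PBS arrays. On OVA arrays Notch3 stood at 9.31 to 9.77.

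Most tryptophan that is not built into protein is broken down along the kynurenine pathway. Tryptophan dioxygenase, encoded by Tdo2 and best known from liver, and the indoleamine dioxygenases encoded by Ido1 and Ido2 catalyze the same first step, the opening of the indole ring. The formamidase encoded by Afmid then releases kynurenine, Kmo hydroxylates it, Kynu cleaves the product and Haao opens the ring on the way to NAD. Tph1 belongs to the other branch, where it hydroxylates tryptophan in the synthesis of serotonin outside the brain. Ido1 is known as a target of interferon-γ in cells that present antigen, and Kmo and Kynu are known from macrophages and related myeloid cells.

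Upstream sequence was at hand for 5 of the 8 genes, Tdo2, Afmid, Kmo, Haao and Tph1, with 2 start sites for Tph1. The 250 bases before the annotated start are shown for Tdo2 and Kmo because these genes had the largest differences of the 8 between OVA and PBS arrays. The sequences are from RefSeq on the GRCm38.p6 build and run 5′ to 3′ on the strand of the gene, and capitals mark GCGTG on either strand, the core that the aryl hydrocarbon receptor, a sensor of kynurenine, is known to bind.
Tdo2, chr3:81975729-81975978, minus strand: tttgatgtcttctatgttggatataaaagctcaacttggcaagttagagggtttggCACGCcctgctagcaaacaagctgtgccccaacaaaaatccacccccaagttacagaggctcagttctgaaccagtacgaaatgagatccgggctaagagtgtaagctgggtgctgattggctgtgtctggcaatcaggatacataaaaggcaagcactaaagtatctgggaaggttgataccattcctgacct
Kmo, chr1:175631943-175632192, plus strand: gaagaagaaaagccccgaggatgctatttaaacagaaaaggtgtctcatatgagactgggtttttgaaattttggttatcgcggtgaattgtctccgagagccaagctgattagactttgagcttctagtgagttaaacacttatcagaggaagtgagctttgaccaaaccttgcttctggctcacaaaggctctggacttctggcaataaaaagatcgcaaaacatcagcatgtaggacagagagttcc
The Tdo2 window held 1 such match, read as CACGC on the strand shown, from base -194 to base -190 counted from the start, and the Kmo window held none. Of the 6 windows 3 held a match, and 28.2% of 32851 windows of the same length did. The palindrome that STAT proteins can bind, TTC and GAA with any 3 bases between them, was in 0 of the 6 windows and in 7.02% of all windows, and the form with 4 bases between, which STAT6 can bind, was in 0 of the 6 and in 5.85% of all. A match is a run of letters and not a measured site.

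Of the 3 genes for the first step, Tdo2 was higher on OVA arrays, and Ido1 and Ido2 were not apart from the PBS arrays. Tdo2 (Entrez 56720) had levels of 6.13, 6.98 and 6.98 on PBS 1, PBS 2 and PBS 3, and of 8.82, 8.42 and 9.10 on OVA 1, OVA 2 and OVA 3. The groups did not overlap with or without OVA 2, and even this lowest OVA array stood 1.44 units above the highest PBS array. The PBS mean of 6.70 ± 0.49 (SD, n = 3) compared with 8.96 ± 0.19 (SD, n = 2) for OVA 1 and OVA 3, and the log2 difference was 2.26 (standard error 0.276), which is 4.80-fold. With all 6 arrays the OVA mean was 8.78 ± 0.34 (SD, n = 3) and the difference 2.08 (standard error 0.279). Of all 20239 genes, 11 (0.0544%) had a difference at least as large as that of Tdo2 over the 5 arrays. The lowest PBS array, PBS 1, lay 0.85 units under the highest, and without it the difference was 1.98.

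Ido1 (Entrez 15930) stood at 4.74, 5.09 and 4.86 across the PBS arrays and at 4.74 and 4.86 on OVA 1 and OVA 3, with OVA 2 at 5.51. All 6 levels lay under the lower quartile of their own array. The log2 difference was -0.10 (standard error 0.124) over the 5 arrays, with the OVA values inside the range of the PBS values, and 0.14 (standard error 0.224) over all 6. Ido2 (Entrez 209176), which lies beside Ido1 in the genome, stood at 5.70, 5.76 and 5.80 across the PBS arrays and at 5.73 and 5.49 on OVA 1 and OVA 3, with OVA 2 at 6.26. Its difference was -0.14 (standard error 0.102) over the 5 arrays and 0.07 (standard error 0.203) over all 6. For both genes OVA 2 lay above every PBS array, as it did for 45.7% of all genes, while for 37.7% it lay below. After quantile normalization of all 6 arrays, a step added after seeing the data, OVA 2 stood at 5.16 for Ido1, just under PBS 2 at 5.18, and at 6.04 for Ido2, against 5.78 to 5.82 on PBS arrays.

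**Figure D1:**
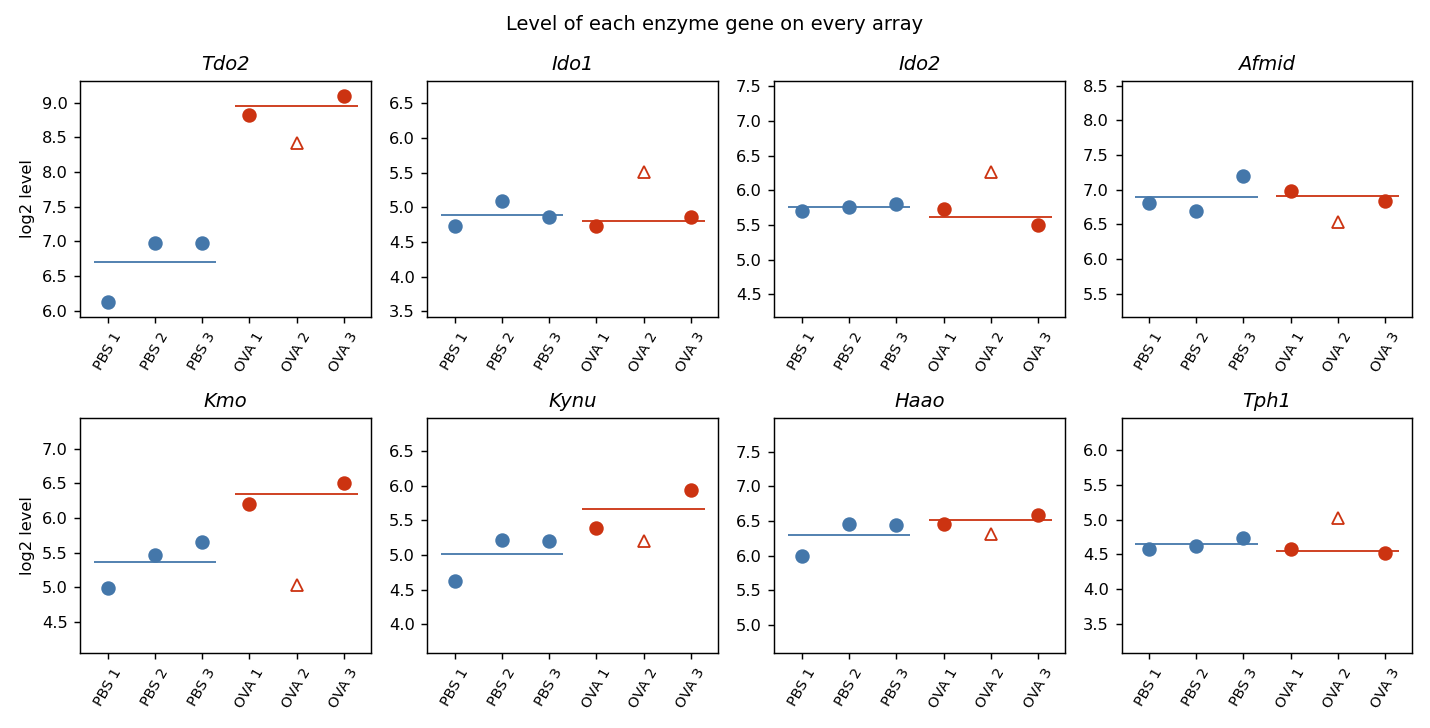
Log2 level of each of the 8 genes on the 3 PBS arrays (blue) and the 3 OVA arrays (red, with OVA 2 as an open triangle), in panels that all span 3.4 log2 units. Lines mark the mean of the PBS arrays and of OVA 1 and OVA 3. Tdo2 stood at 6.13 to 6.98 on PBS arrays and at 8.42 to 9.10 on OVA arrays, whereas Kmo and Kynu were higher on OVA 1 and OVA 3 and not on OVA 2.

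Afmid (Entrez 71562), the gene of the second step, stood at 6.81, 6.69 and 7.20 across the PBS arrays and at 6.98 and 6.84 on OVA 1 and OVA 3, with OVA 2 at 6.54. The OVA 1 and OVA 3 values lay inside the PBS range. The log2 difference was 0.01 (standard error 0.161) over the 5 arrays and -0.11 (standard error 0.187) over all 6.

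Kmo and Kynu, which act on kynurenine in turn, were higher on OVA 1 and OVA 3 than on any PBS array, but not on OVA 2. Kmo (Entrez 98256) had levels of 4.98, 5.46 and 5.66 on PBS 1, PBS 2 and PBS 3 and of 6.20 and 6.51 on OVA 1 and OVA 3, with OVA 2 at 5.03. Mean Kmo levels were 5.37 ± 0.35 (SD, n = 3) for PBS and 6.35 ± 0.22 (SD, n = 2) for OVA 1 and OVA 3, so the log2 difference was 0.99 (standard error 0.213) or 1.98-fold. Of all genes, 116 (0.573%) had a difference at least this large. With all 6 arrays the difference was 0.54 (standard error 0.381) and the groups overlapped. Kynu (Entrez 70789) stood at 4.62, 5.21 and 5.20 across the PBS arrays and at 5.39 and 5.93 on OVA 1 and OVA 3, with OVA 2 at 5.20. Its difference was 0.65 (standard error 0.238) over the 5 arrays and 0.49 (standard error 0.245) over all 6, and it was 0.38 without OVA 3, the higher of these 2 OVA arrays. The Kynu levels on the PBS arrays and on OVA 2 lay under the lower quartile of those arrays, and so did the Kmo levels on PBS 1 and OVA 2.

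Haao (Entrez 107766), the last of the pathway enzymes listed here, stood at 6.00, 6.46 and 6.45 across the PBS arrays and at 6.46 and 6.58 on OVA 1 and OVA 3, with OVA 2 at 6.32. The groups overlapped, with a log2 difference of 0.22 (standard error 0.160) over the 5 arrays, 0.15 (standard error 0.169) over all 6 and 0.07 without PBS 1. Tph1 (Entrez 21990), of the serotonin branch, stood at 4.57, 4.63 and 4.73 across the PBS arrays and at 4.57 and 4.52 on OVA 1 and OVA 3, with OVA 2 at 5.03. All of these lay under the lower quartile of their array, and the difference was -0.10 (standard error 0.0891) over the 5 arrays and 0.06 (standard error 0.168) over all 6.

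In all, OVA 1 and OVA 3 lay above every PBS array for 3 of the 8 genes, Tdo2, Kmo and Kynu, and below every PBS array for 0. Over all 20239 genes 11.9% lay above and 16.8% below in this way. With OVA 2 included the count was 1 of 8, Tdo2, and the shares over all genes were 4.16% and 7.83%. The median log2 difference of the 8 genes was 0.11 over the 5 arrays and 0.15 over all 6, against -0.02 and 0.03 for all genes. Nothing is read from these counts, since the list was made with the comparison known.

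**Figure D2:**
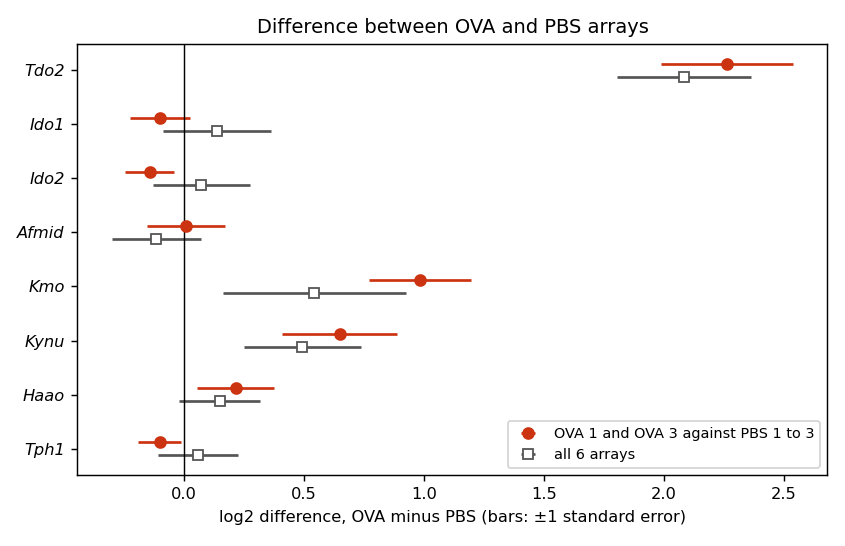
Log2 difference, OVA minus PBS, of each of the 8 genes, with bars of 1 standard error, for OVA 1 and OVA 3 against the 3 PBS arrays (filled circles) and for all 6 arrays (open squares). Tdo2 stood at 2.26 and 2.08, and Kmo went from 0.99 to 0.54 when OVA 2 was included.

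For Kmo the arrays ranked from low to high as PBS 1, OVA 2, PBS 2, PBS 3, OVA 1 and OVA 3, and for Kynu and Haao PBS 1 and OVA 2 were also the lowest arrays and OVA 3 the highest. For Tdo2 the order was PBS 1, PBS 3, PBS 2, OVA 2, OVA 1 and OVA 3. Over the 6 arrays, Pearson's r between Kmo and Kynu was 0.86, between Kynu and Haao 0.90 and between Kmo and Haao 0.79. For Tdo2 it was 0.84 with Kynu, 0.69 with Kmo and 0.67 with Haao. Ido1, Ido2 and Tph1 shared OVA 2 as their highest array, with r of 0.84 between Ido1 and Ido2 and 0.97 between Ido2 and Tph1. These values describe 6 points that share their arrays, among them the outlying one. Among 3465 other genes with a range of at least 1 unit over the 6 arrays, the levels most like those of Tdo2 were those of Ccl11, Aldh1a3, Col6a5, Chl1 and Cxcl5, with r from 0.978 for Cxcl5 to 0.995 for Ccl11. Those most like Kmo were Mgl2, Clec4a1, Cd209a, Alg3 and Il1rn, with r from 0.989 for Il1rn to 0.996 for Mgl2. Ccl11, which encodes the chemokine eotaxin, had levels of 9.87 to 10.44 on PBS arrays and 11.22 to 11.43 on the 3 OVA arrays. Mgl2, which encodes a C-type lectin of myeloid cells, had levels of 6.04 to 6.67 on PBS arrays and of 7.28 and 7.48 on OVA 1 and OVA 3, with OVA 2 at 6.19.

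Markers of several cell types differed between the arrays along with the enzymes. All 8 measured markers of leukocytes in general had a positive log2 difference over the 5 arrays, with OVA 1 and OVA 3 above every PBS array for 6 of the 8, though 0 passed a false-discovery rate of 0.25 in limma. Their mean level was 7.37, 8.45 and 8.41 on PBS 1, PBS 2 and PBS 3 and 8.58 and 8.93 on OVA 1 and OVA 3, with OVA 2 at 6.79, so PBS 1 and OVA 2 were the lowest arrays here, as for Kmo and Kynu. Over all genes 11.9% lay above every PBS array on OVA 1 and OVA 3 and 16.8% below, which is the background for this and the next counts of markers. The 13 markers of macrophages and dendritic cells, among them Cd209a, had mean levels of 6.73 to 7.39 on PBS arrays and of 7.55 and 7.78 on OVA 1 and OVA 3, with OVA 2 at 6.63. On OVA 1 and OVA 3, 8 of the 13 lay above every PBS array and 1, Mertk, lay below, with a difference of -0.41. Of the markers of neutrophils, of T and NK cells and of B and plasma cells, 3 of 6, 4 of 8 and 2 of 5 lay above every PBS array on OVA 1 and OVA 3. The 5 eosinophil markers had a mean level of 5.10 to 5.22 on PBS arrays. It was 5.23 on OVA 1, 5.21 on OVA 3 and 5.46 on OVA 2. Of the 5 eosinophil markers, 1 lay above and 1 below every PBS array on OVA 1 and OVA 3. No marker of any list was at 0 on this log2 scale. The lowest level of any probe set was 1.91 to 2.02 across the 6 arrays, so this does not show which cells were present. The part of these cells in the levels of Tdo2, Kmo and Kynu was not tested, and in such sorted samples fewer cells of a type and less RNA per cell cannot be told apart. For Tdo2, PBS 1 was also the lowest array, and OVA 2, which had the lowest leukocyte marker mean of the 6 arrays and compressed levels, stood at 8.42. The 8 smooth muscle markers also had positive differences over the 5 arrays, 8 of 8, with a mean of 0.64 against 0.68 for the leukocyte markers, and 2 of them, Acta2 and Actg2, lay above every PBS array. Their mean level was 9.99 to 11.13 on PBS arrays, and it was 11.07 on OVA 1, 11.39 on OVA 3 and 10.33 on OVA 2. Endothelial and epithelial markers lay the other way. The 6 endothelial markers had a mean level of 8.54 to 9.50 on PBS arrays, of 8.40 on OVA 1, 8.41 on OVA 3 and 6.99 on OVA 2, with 0 of 6 differences positive and 3 of 6 below every PBS array over the 5 arrays. The 7 epithelial markers had a mean level of 8.57 to 8.87 on PBS arrays, of 8.41 on OVA 1, 8.31 on OVA 3 and 7.48 on OVA 2, with 1 of 7 differences positive and 4 of 7 below every PBS array. The part of these shifts in the levels of the 8 enzymes was not tested either. The 8 fibroblast markers had a mean level of 10.82 to 11.07 on PBS arrays, of 10.90 on OVA 1, 10.73 on OVA 3 and 11.16 on OVA 2. Over the 5 arrays 2 of 8 differences were positive, and 3 of 8 fibroblast markers lay below every PBS array. The 7 markers of vascular smooth muscle and pericytes had a mean level of 9.13 to 9.61 on PBS arrays. It was 9.37 on OVA 1, 9.57 on OVA 3 and 8.77 on OVA 2. Over the 5 arrays 4 of these 7 differences were positive. Of the 7, 1 lay above every PBS array, Rgs5, and 1 below, Abcc9. The mean over 6 hepatocyte markers, of the tissue best known for Tdo2, was 4.63 to 4.72 on PBS arrays and 4.62, 5.25 and 4.66 on OVA 1, OVA 2 and OVA 3, with single markers from Serpina1a, at 2.14 to 3.22 over the 6 arrays, to Apoa1, at 6.36 to 6.97. Mast cells are a known site of Tph1. The 9 markers of mast cells and basophils had a mean level of 5.26 to 5.36 on PBS arrays, of 5.21 on OVA 1, 5.22 on OVA 3 and 5.45 on OVA 2. Over the 5 arrays 2 of 9 differences were positive, and 2 of 9 of these markers lay below every PBS array.

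**Figure D3:**
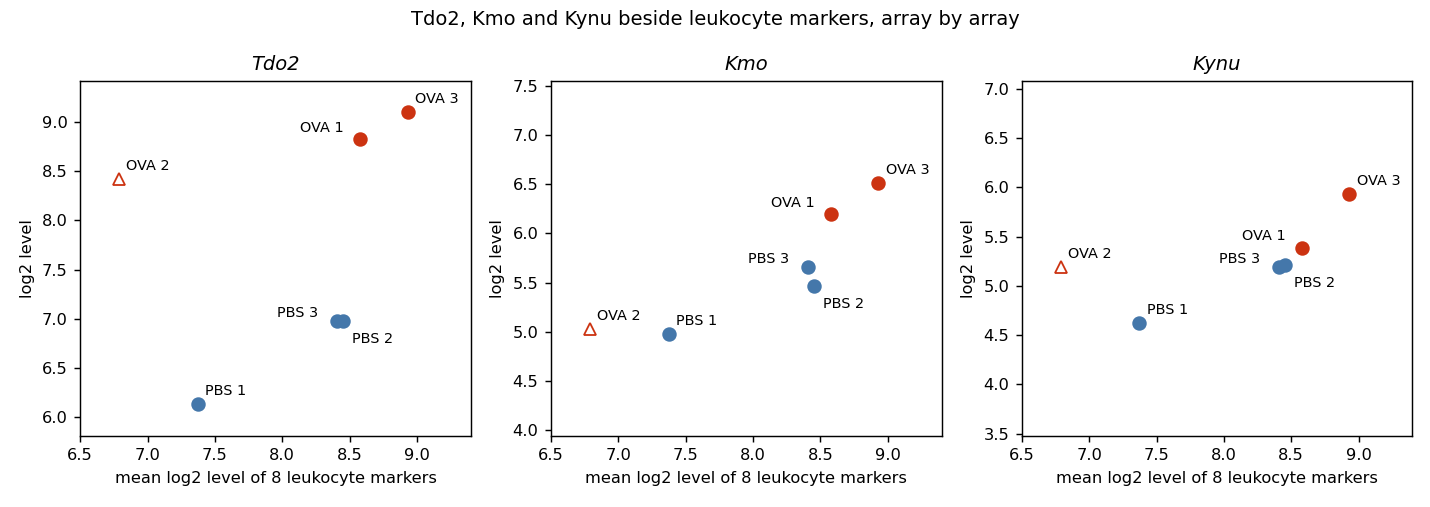
Log2 level of Tdo2, Kmo and Kynu on each array against the mean log2 level of 8 leukocyte markers on the same array, for PBS arrays (blue) and OVA arrays (red, with OVA 2 as an open triangle). On OVA 2, where the marker mean was 6.79, Kmo stood at 5.03 and Tdo2 at 8.42.

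Other genes of tryptophan metabolism were tested with limma across all genes, and 50 of the 55 on 8 lists were measured. None passed a false-discovery rate (FDR) of 0.25 with either set of arrays (lowest adjusted p = 0.480 over the 5 arrays and 0.892 over all 6, from limma), which 8 genes of all (0.0395%) passed over the 5 arrays and 1 (0.00494%) over all 6. At an unadjusted p under 0.05 there were 2 higher and 2 lower over the 5 arrays, which is 8.0% of the 50, against 9.31% of all genes, 4.53% higher and 4.78% lower. Over all 6 arrays there were 1 higher and 2 lower, against 4.54% of all genes, 1.44% higher and 3.1% lower. The median log2 difference of the 50 genes was -0.03 over the 5 arrays, with that of all genes at -0.02, and single genes lay between -0.51 and 0.56.

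Of the genes next to the 8 enzymes in the kynurenine pathway, the 5 measured were Aadat, Kyat1 and Kyat3, which make kynurenic acid, Acmsd, which diverts an intermediate from the path to NAD, and Qprt, which carries quinolinate on to it. None of them and none of the 7 genes of NAD synthesis had an unadjusted p under 0.05. Aadat had a difference of -0.09 (standard error 0.0992), and Nadsyn1, which encodes NAD synthetase, 0.00 (standard error 0.128). In the serotonin branch, 0 of 6 genes reached this p, with Tph2, the hydroxylase of neurons, at -0.14 (standard error 0.121). For Gch1, which starts the synthesis of the cofactor of tryptophan hydroxylase, the difference was -0.22 (standard error 0.177), and 0 of the 5 cofactor genes reached this p. Nor did any of the 5 measured genes of other aromatic amino acid breakdown, with a median difference of -0.02. Tat, the first of these measured, had a difference of -0.02 (standard error 0.103).

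Among 9 genes that carry tryptophan into cells or load it on tRNA, Slc7a8 and Slc6a14 reached an unadjusted p under 0.05, in opposite directions. Slc7a8, which encodes a transporter of neutral amino acids, stood at 6.24, 6.31 and 6.85 across the PBS arrays and at 6.90 and 7.16 on OVA 1 and OVA 3, with OVA 2 at 6.28. The difference was 0.56 (standard error 0.202, adjusted p = 0.516 from limma), and 0.31 with all 6 arrays, where it no longer reached this p. Slc6a14, a transporter of neutral and cationic amino acids, stood at 4.69, 5.03 and 5.21 across the PBS arrays and at 4.69, 4.52 and 4.39 on OVA 1, OVA 2 and OVA 3. Its difference was -0.44 (standard error 0.175, adjusted p = 0.532 from limma), and OVA 1 lay only just under PBS 1. All 6 Slc6a14 levels lay under the lower quartile of their own array. Slc7a5, the main carrier of tryptophan in many dividing cells, had a difference of 0.19 (standard error 0.136), with OVA 1 at 8.35 inside and OVA 3 at 8.77 above the PBS range of 8.34 to 8.41.

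The aryl hydrocarbon receptor gene Ahr had a difference of 0.15 (standard error 0.144), and 0 of the 8 genes that sense kynurenines or respond to this receptor reached an unadjusted p under 0.05. Cyp1b1, a target of the receptor, stood at 7.49, 8.25 and 8.44 across the PBS arrays and 8.44, 8.70 and 8.65 on OVA 1, OVA 2 and OVA 3. Tiparp, a further target, had levels of 9.53 to 10.24 on PBS arrays and 8.95 to 9.61 on OVA arrays. The difference was 0.49 (standard error 0.279) for Cyp1b1 and -0.34 (standard error 0.207) for Tiparp, both of which were picked with their values in view. Of the genes that act upstream of Ido1, Ifngr2, which encodes a chain of the interferon-γ receptor, had a difference of 0.52 (standard error 0.162, adjusted p = 0.480 from limma). The Ifngr2 levels were 10.07 to 10.61 on PBS arrays and 10.81 and 10.90 on OVA 1 and OVA 3. OVA 2, at 10.61, stood level with the highest PBS array, and the difference was 0.44 with all 6 arrays. Irf1, a transcription factor induced by interferon-γ, had levels of 10.63, 10.33 and 10.67 in the PBS samples and 10.25, 9.45 and 9.83 in OVA 1, OVA 2 and OVA 3, and a difference of -0.51 (standard error 0.164, adjusted p = 0.496 from limma). Ifng itself had a difference of -0.14 (standard error 0.0949). With 1 array left out, the p of Slc7a8 stayed under 0.05 only without PBS 3, while that of Slc6a14 did not without PBS 2, PBS 3 or OVA 3, that of Irf1 without PBS 1, PBS 3 or OVA 3, and that of Ifngr2 without OVA 1 or OVA 3. Without OVA 3, the difference of Irf1 was -0.30 and that of Slc6a14 -0.28, and 0 of the 50 genes had an unadjusted p under 0.05, whereas without any other of the 5 arrays 4 or 5 did. Without OVA 1 or OVA 3 a single OVA array is left, so the spread in those fits comes from the PBS arrays alone and the lone array is assumed to vary like them.

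**Figure D4:**
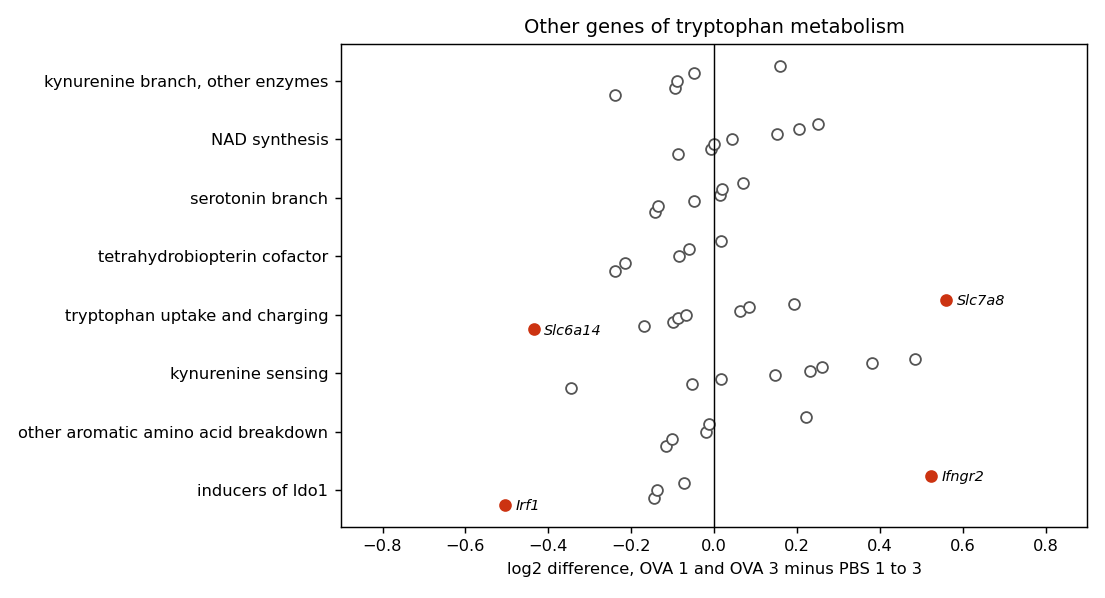
Log2 difference between OVA 1 and OVA 3 and the 3 PBS arrays for 50 other genes of tryptophan metabolism in 8 lists, with 1 point per gene. Filled points are the 4 genes with an unadjusted p under 0.05 from limma, and none of the 50 passed an FDR of 0.25.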

How the data were processed

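Levels were measured on 6 whole-transcript arrays, 3 of PBS and 3 of OVA samples. The deposited values are log2 levels, 1 per probe set, which the authors made by background correction, normalization and summary over probes. The submitters' notes name RMA and affy for this, and the Methods a probe-level model fit in oligo. For versions and build, the entry is: not given in the sources used here. Of 21225 probe sets, each tied to 1 Entrez identifier, 20239 had a symbol and were tested, and 986 were not in the table of names and were left out. Values were used without further normalization or filter. The labels name separate animals and the Methods pools of several mice, so the p-values measure the spread between these samples. The number of arrays limits the precision, and 3 arrays against 2 leave few degrees of freedom.

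The OVA array farthest from the median first principal component score, OVA 2, was left out of the first comparison. Differences were estimated, and the other genes of tryptophan metabolism tested, using limma 3.58.1 (lmFit, then eBayes; R 4.3.3). Tests were two-sided, and p-values were adjusted by Benjamini and Hochberg's method over all genes, at a threshold of 0.25. The robust alternative used statmod 1.5.0. The comparison was tested on simulated data. The 8 genes, the other lists and the markers were chosen with earlier results of these data known. Named beside the 8 genes are the other genes at an unadjusted p under 0.05, the first measured gene of each list, the 5 genes most like Tdo2 and Kmo, and Acta2 and Ptprc, and any other was picked with its values in view. The list of other aromatic amino acid breakdown opens with a gene that is not analysed here. Alternatives were all 6 arrays, array weights, leaving out each array, quantile normalization, median centring, a filter at the percentile 25 of level, an intensity trend with robust variance, and the replicate number as a block.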

Additional observations from a re-analysis of the deposited data

How the results depend on the processing

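The log2 difference of Tdo2 lay between 1.98 and 2.40 under the 12 alternatives run for it, among them each of the 5 arrays left out in turn. That of Kmo was 0.79 to 1.14 with an array left out, 0.54 with all 6 arrays, with or without the replicate number as a block, and 0.37 with all 6 arrays after quantile normalization, an alternative added after seeing the data. The differences of Kynu and Haao were positive under all 12 alternatives, from 0.35 to 0.92 and from 0.07 to 0.30. Those of Ido1, Ido2, Afmid and Tph1 lay between -0.26 and 0.16 and took both signs.

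Counts over all genes depended on the arrays. At an unadjusted p under 0.01 there were 398 genes over the 5 arrays (109 to 575 with 1 array left out, the lowest without OVA 3), 174 over all 6, 186 over all 6 with the replicate block, and 722 with array weights, which gave OVA 2 a weight of 0.0845 and the others 1.11 to 2.87. Leaving out 1 of the 6 arrays gave 65 to 398, the lowest without PBS 1 and the highest without OVA 2. At an FDR under 0.25 there were 8 genes, 1 over all 6 arrays, 438 with array weights, 38 and 2 with the block over 5 and 6 arrays, 1 with the filter on low levels, and 0 to 68 with 1 array left out (0 without PBS 2 or OVA 3, 68 without PBS 3). The other genes of tryptophan metabolism at an unadjusted p under 0.05 numbered 4, and 0 to 5 with 1 array left out, the lowest without OVA 3. Where OVA 1 or OVA 3 of the 5 arrays was left out, the spread came from the PBS arrays alone. With the replicate block over the 5 arrays they numbered 6 and the Tdo2 difference was 2.40; PBS 2 then has no partner, so these differences are those without PBS 2. The deviations of samples of the same number from their group means had correlations of -0.11, -0.04 and 0.01. The OVA mean includes the outlying OVA 2, so these values cannot decide whether such samples belong together. Array weights were estimated gene by gene because the default estimation stopped before it converged.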
